A study of Mus musculus with 24 samples.

Results

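This report compares luminal mammary epithelial cells of PIK3CA-mutant mice that carry Sca1 on their surface with luminal cells of control mice that lack it. The comparison holds 6 of the 24 arrays of the series, 3 against 3, and all 19937 genes with a probe set of a single gene symbol. In the normal mouse gland the luminal Sca1-positive gate is known for hormone-sensing cells and the Sca1-negative gate for alveolar progenitors, and the question put to the data was how near the mutant Sca1-positive cells come to the normal Sca1-negative state. Both remaining luminal groups are given for scale.

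The groups, all from mice of mixed FVB/C57BL6 background 4 weeks post Tamoxifen, were as follows. Mutant Sca1-positive cells came from Lgr5-creERT2/PIK3CA H1047R mice and were sorted as CD45-negative, CD24high, Sca1-positive and GFP-positive. Mutant Sca1-negative cells were GFP-positive too and came from the same genotype. Control Sca1-positive and control Sca1-negative cells came from Lgr5-creERT2 control mice and were GFP-negative. Each group had 3 arrays from 3 independent sortings of glands pooled from 2 to 3 estrus-synchronised mice, and each array was made from amplified RNA of 250 cells. GFP marks cells that express Lgr5, the PIK3CA transgene or both, and recombination was driven by Lgr5-creERT2. Genotype, GFP state and Sca1 gate all differ between the mutant Sca1-positive and the control Sca1-negative cells, and the contribution of each of these 3 factors cannot be told apart. The labels call the tissue of both genotypes preneoplastic mammary gland.

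Hormone-sensing luminal cells carry the estrogen and progesterone receptors and relay the hormonal signal to their neighbours through secreted factors. Alveolar progenitors depend on the transcription factor Elf5 and the receptor tyrosine kinase Kit, respond to prolactin through STAT5, and in pregnancy turn on the casein and whey protein genes of milk. PIK3CA encodes the catalytic subunit p110alpha of phosphoinositide 3-kinase, and the H1047R change is a common activating mutation of breast cancer.

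All levels are log2 expression values as deposited, and differences are log2 differences with the standard error of a limma fit over all 24 arrays. A gene was called when its Benjamini-Hochberg adjusted p over the 19937 genes was under 0.05, two-sided. A level below 4.66, the median of all gene means, is called dim. Since the cells are sorted mixtures, fewer cells of a type and less RNA per cell cannot be told apart. Array medians ran from 4.39 to 4.55 over the series. Ptprc, which encodes the CD45 used to exclude leukocytes, lay at 4.06, 4.11 and 4.11 in mutant Sca1-positive cells and at 4.25, 4.22 and 4.48 in control Sca1-negative cells, dim on all 6 arrays. Ly6a, the gene of Sca1, is not analysed here, so the Sca1 gate was not checked on its own gene. Pik3ca had 7.62, 7.76 and 7.79 in mutant Sca1-positive cells, against 7.18, 7.02 and 6.80 in control Sca1-negative cells, without overlap but not called (difference 0.72 ± 0.21, adjusted p = 0.0893). Lgr5 lay at 4.42, 4.24 and 4.42 in mutant Sca1-positive cells and at 4.54, 4.56 and 4.25 in control Sca1-negative cells, dim on all 6 arrays.

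The first of the mutant Sca1-positive arrays lay at one end of its group on several gene lists, most clearly on the basal one. Its mean level over the 24 basal and myoepithelial genes was 6.50, against 5.67 and 5.68 on the other two, while the 3 mutant Sca1-negative arrays lay at 6.49, 6.50 and 6.85. Over the 23 milk and secretory genes it had 7.66, against 6.75 and 6.43, with the mutant Sca1-negative arrays at 8.36, 8.06 and 8.08. Its hormone-sensing mean, 7.14, was the lowest of the 3, against 7.53 and 7.81. Over all genes the first array did not stand apart in its distance from the other arrays of its group. Its root mean square log2 difference was 0.413 from the second and 0.446 from the third, against 0.409 between the second and the third. It did stand apart in its distance from the mutant Sca1-negative arrays, 0.480 to 0.526. The second lay at 0.557 to 0.614 from them and the third at 0.595 to 0.667. The first array was singled out after its values were seen, and the results below that rest on these lists are given with and without it.

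In the comparison of mutant Sca1-positive with control Sca1-negative cells, 454 of 19937 genes (2.28%) were called, 304 higher (1.52%) and 150 lower (0.752%). Of these, 223 were higher and 92 lower by at least 2-fold, and on 445 of the 454 genes the groups did not overlap. Groups that do not overlap occurred on 22.7% of all genes tested, 9.22% with the mutant arrays higher and 13.5% with them lower. The median difference over all genes was -0.04. After quantile normalization the called genes split into 223 higher and 192 lower. Without the first mutant Sca1-positive array 444 genes were called, without the second 293 and without the third 245. A fit of the 6 arrays compared called 54 genes. Of the 58 called genes named below, 16 stayed called under every alternative run for them, namely Wfdc12, Il33, Il17b, Dmbt1, Hspb8, Ypel4, Ang5, Slpi, Htr4, Sytl2, AW112010 and Slc25a30, which were higher, and Egln3, Egfr, Thbs1 and Ccn2, which were lower. These were 16 alternatives, or 15 for Ypel4 and Sytl2, which the alternative without dim genes leaves out. In the fit of the 6 arrays 41 of the 58 lost their call.

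For scale, control Sca1-positive cells differed from the same control Sca1-negative arrays on 735 genes (3.69%), 415 higher (2.08%) and 320 lower (1.61%), which after quantile normalization became 310 higher and 369 lower. Mutant Sca1-positive cells differed from control Sca1-positive cells on 155 genes (0.777%), 80 higher (0.401%) and 75 lower (0.376%). Groups that do not overlap occurred on 22.7% of genes between the control gates (8.83% higher and 13.8% lower in control Sca1-positive cells) and on 15.7% between mutant and control Sca1-positive cells (8.15% higher and 7.51% lower in the mutant). Without the third control Sca1-positive array the numbers called were 458 and 103. The comparisons share arrays pairwise, so their counts and values are set side by side and were not tested against each other. A gene's difference between mutant and control Sca1-positive cells tests whether its level differs between cells that differ in genotype and GFP state. Whether the gap to the control Sca1-negative cells is narrower or wider was not tested. A mutant level can pass beyond the control Sca1-negative one, as for Csn2 and Mdga2 below.

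Distance between arrays was taken as the root mean square log2 difference over all genes. It gives how far apart arrays lie and not in which direction, so it does not place a group between others. The 9 pairs of mutant Sca1-positive and control Sca1-negative arrays had a median distance of 0.570, from 0.523 to 0.600. Mutant Sca1-positive arrays lay nearer to control Sca1-positive arrays, with a median of 0.519 and a range of 0.443 to 0.543. The pairs of control Sca1-positive and control Sca1-negative arrays had a median of 0.618, from 0.584 to 0.649. Within groups the medians were 0.413 for mutant Sca1-positive, 0.440 for control Sca1-positive and 0.469 for control Sca1-negative cells. Array by array, the first mutant Sca1-positive array had medians of 0.527 to control Sca1-positive and 0.533 to control Sca1-negative arrays. On the second these were 0.519 and 0.570, and on the third 0.516 and 0.591. The first array was also the nearest to the mutant Sca1-negative arrays, at 0.512, against 0.584 and 0.633 for the other two.

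**Figure D1:**
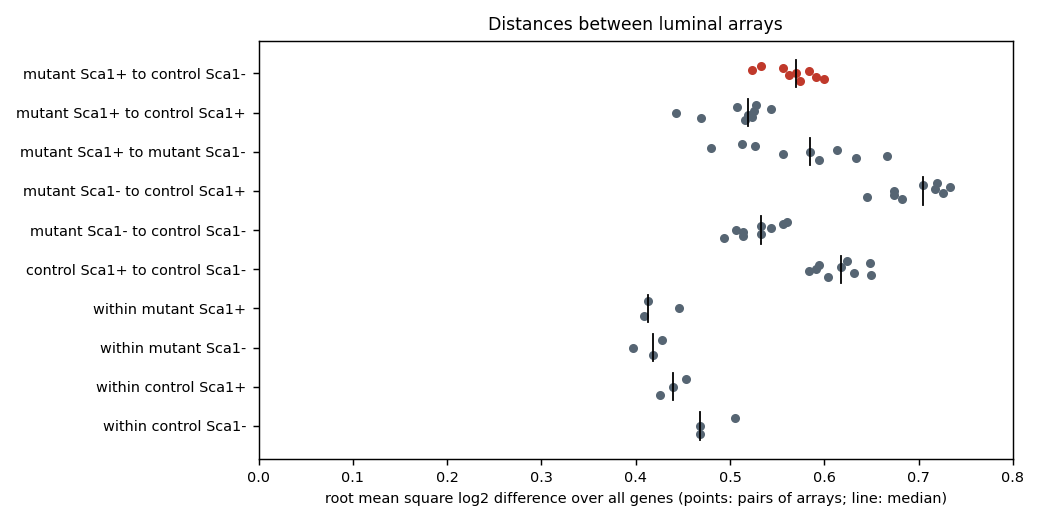
Root mean square log2 difference over all 19937 genes (x axis) for each pair of luminal arrays (points) with the median of each kind of pair (line). The pairs of mutant Sca1-positive and control Sca1-negative arrays, from 0.523 to 0.600, lie below most pairs of the control gates, 0.584 to 0.649, and above most pairs of mutant and control Sca1-positive arrays, 0.443 to 0.543.

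Of 11 measured genes of hormone-sensing luminal cells, 4 were higher in mutant Sca1-positive than in control Sca1-negative cells (Foxa1, Esr1, Msx2 and Myb), 0 were lower, 7 were not called, and the median difference was 0.95, against -0.04 over all genes. Control Sca1-positive cells had 5 of 11 higher, with a median difference of 1.34. Against control Sca1-positive cells 2 of the 11, Myb and Prom1, fell and 9 were not called, with a median difference of -0.12. Without the first mutant array the same 4 members were higher than in control Sca1-negative cells, with a median of 1.255. Prom1 alone then fell against control Sca1-positive cells, with a median of 0.085. Without the third mutant array the higher members were 1, Foxa1, and with any other single array left out 3 or 4. The fall of Myb was lost with most single arrays left out, as given below.

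Foxa1, the pioneer factor that opens chromatin for the estrogen receptor, had 10.17, 10.09 and 10.40 in mutant Sca1-positive cells and 10.28, 9.81 and 9.93 in control Sca1-positive cells, against 7.65, 6.38 and 8.76 in control Sca1-negative cells. All 3 mutant arrays lay above all 3 control Sca1-negative arrays, which spread widely, and within the range of the control Sca1-positive arrays or just above it. It was 6.18-fold higher than in control Sca1-negative cells (2.63 ± 0.46, adjusted p = 0.00325), and its difference from control Sca1-positive cells was 0.22, with a 95% interval of -0.75 to 1.18. In a fit of the luminal arrays alone Foxa1 was not called (adjusted p = 0.055), nor were Esr1, Msx2 and Myb.

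Esr1, the estrogen receptor gene, had 6.79, 7.13 and 7.69 in mutant Sca1-positive cells and 7.89, 6.62 and 7.47 in control Sca1-positive cells, against 6.37, 5.13 and 5.68 in control Sca1-negative cells. The mutant arrays all exceeded the control Sca1-negative ones and overlapped the control Sca1-positive ones. Esr1 rose by 1.48 ± 0.30 against control Sca1-negative cells (adjusted p = 0.0124), a call that ended without the third mutant array (1.23, adjusted p = 0.0767) and without the second control Sca1-negative array (1.18, adjusted p = 0.0694). Its difference from control Sca1-positive cells was -0.12, with an interval of -0.76 to 0.51.

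Msx2, a homeobox factor, rose by 1.82 ± 0.40 (adjusted p = 0.0202), with 7.67, 9.17 and 8.48 in mutant Sca1-positive cells, against 5.91, 6.72 and 7.22 in control Sca1-negative cells. Every mutant array exceeded every control Sca1-negative one. The call ended without the second or the third mutant array or without the first or the second control Sca1-negative array, with adjusted p up to 0.107. Myb, a transcription factor, had 6.79, 6.99 and 7.45 in mutant Sca1-positive cells and 8.28, 7.98 and 7.82 in control Sca1-positive cells, against 5.52, 5.96 and 6.42 in control Sca1-negative cells. The mutant arrays lay between the control gates without touching either. Myb was higher than in control Sca1-negative cells by 1.11 ± 0.22 (adjusted p = 0.00826, 0.0608 without the third mutant array) and lower than in control Sca1-positive cells (difference -0.95 ± 0.22, adjusted p = 0.0478). That last call ended without any one of 5 of the 6 arrays, all but the third mutant one, with adjusted p up to 0.223.

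Prom1, which encodes the surface protein prominin-1 that is used to sort this lineage, had 5.70, 6.13 and 6.90 in mutant Sca1-positive cells and 9.05, 7.89 and 8.73 in control Sca1-positive cells, against 5.91, 6.39 and 7.53 in control Sca1-negative cells. Every mutant array lay below every control Sca1-positive array and among or below the control Sca1-negative ones. It fell by 2.32 ± 0.34 against control Sca1-positive cells (adjusted p = 0.00113), while the difference from control Sca1-negative cells was -0.37 ± 0.34 (adjusted p = 0.697).

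Pgr, the progesterone receptor gene, had 7.18, 8.96 and 9.54 in mutant Sca1-positive cells and 9.30, 9.56 and 9.45 in control Sca1-positive cells, against 7.49, 7.43 and 7.92 in control Sca1-negative cells. The first mutant array lay below all 3 control Sca1-negative arrays and the other two above them, and neither difference was called (0.95 ± 0.57 with adjusted p = 0.484 against Sca1-negative and -0.88 ± 0.57 with adjusted p = 0.833 against Sca1-positive control cells). Cited1, a transcriptional co-regulator of estrogen receptor targets, had 11.76, 11.59 and 11.72 in mutant Sca1-positive cells, against 10.43, 10.07 and 10.39 in control Sca1-negative cells, without overlap but not called (adjusted p = 0.196). Tbx3 differed by 0.90 ± 0.33 and Wnt4, a paracrine signal downstream of progesterone, by 0.80 ± 0.27, neither called. Greb1 and Tnfsf11, targets of the estrogen and progesterone receptors, had differences of -0.01 and -0.03.

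**Figure D2:**
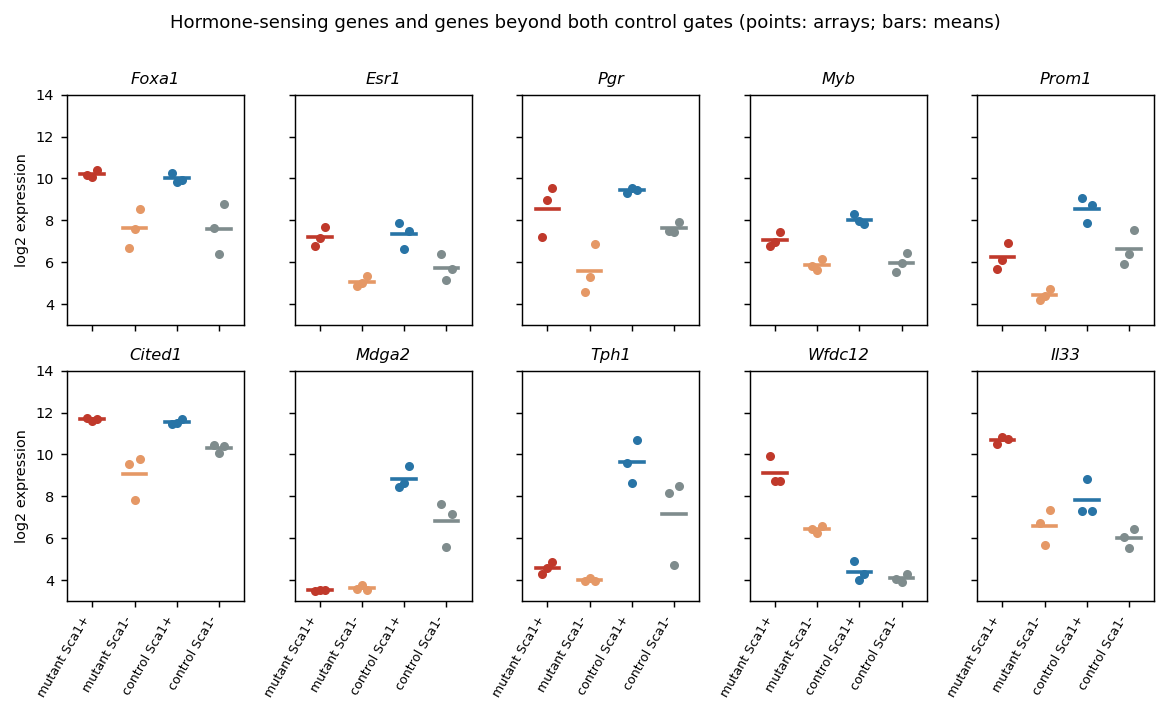
Log2 expression (y axis) of 6 hormone-sensing genes and of Mdga2, Tph1, Wfdc12 and Il33 on each array (points) of the 4 luminal groups, with the group mean (bar). Foxa1 and Esr1 in mutant Sca1-positive cells lie with control Sca1-positive cells, Prom1 lies with control Sca1-negative cells, and Mdga2 and Wfdc12 lie outside both control groups.

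Of 11 measured progenitor regulators and surface proteins, 1 was called lower in mutant Sca1-positive than in control Sca1-negative cells (Kit) and 10 were not called, with a median difference of -0.60. Control Sca1-positive cells had 6 of 11 lower, with a median of -1.25, and 3 or 4 lower whichever single array was left out, with Aldh1a3, Kit and Sox10 called each time. Against control Sca1-positive cells 1 of 11 (Aldh1a3) rose, and all 11 differences were positive, with a median of 0.62. Without the first mutant array 2 were called lower, Elf5 and Kit, with a median of -0.75. Against control Sca1-positive cells Aldh1a3 still rose without that array, and the median was 0.436. Cd14 and Hey1 then had negative differences from those cells, -0.02 and -0.23.

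Kit, the stem cell factor receptor that marks luminal progenitors, had 6.29, 4.79 and 4.68 in mutant Sca1-positive cells and 4.53, 4.41 and 4.46 in control Sca1-positive cells, against 9.66, 8.71 and 8.93 in control Sca1-negative cells. All mutant arrays lay far below the control Sca1-negative ones, and the first stood above the other two. Kit was 14.4-fold lower than in control Sca1-negative cells (-3.85 ± 0.37, adjusted p = 9.49e-06) and its difference from control Sca1-positive cells was 0.79 ± 0.37 (adjusted p = 0.633), or 0.27 without the first mutant array.

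Elf5, the ETS factor that directs alveolar fate, had 8.58, 5.96 and 4.67 in mutant Sca1-positive cells, against 8.84, 7.82 and 7.37 in control Sca1-negative cells. The mutant arrays ran from just above the dim level to within the control Sca1-negative range, and the first array alone was in it. The difference of -1.61 ± 0.77 was not called (adjusted p = 0.345), and without the first mutant array it was -2.70 and called (adjusted p = 0.0384). Against control Sca1-positive cells, with 4.78, 4.87 and 4.67, it differed by 1.63 ± 0.77 (adjusted p = 0.638).

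Aldh1a3, a retinaldehyde dehydrogenase active in luminal progenitors, had 8.12, 7.52 and 7.25 in mutant Sca1-positive cells and 4.83, 5.19 and 5.14 in control Sca1-positive cells, against 8.42, 9.01 and 7.54 in control Sca1-negative cells. The mutant arrays overlapped the control Sca1-negative ones and lay above every control Sca1-positive array. It rose by 2.57 ± 0.31 against control Sca1-positive cells (adjusted p = 0.000125, 0.000989 without the first mutant array) and differed from control Sca1-negative cells by -0.69 ± 0.31 (adjusted p = 0.311). Among the others, Cd14, a co-receptor of lipopolysaccharide, differed from control Sca1-negative cells by -2.22 ± 0.75 (adjusted p = 0.145), the ETS factor Ehf by -0.63 ± 0.30 (adjusted p = 0.337) and Sox10 by -0.60 ± 0.25 (adjusted p = 0.264), none called although the groups did not overlap.

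**Figure D3:**
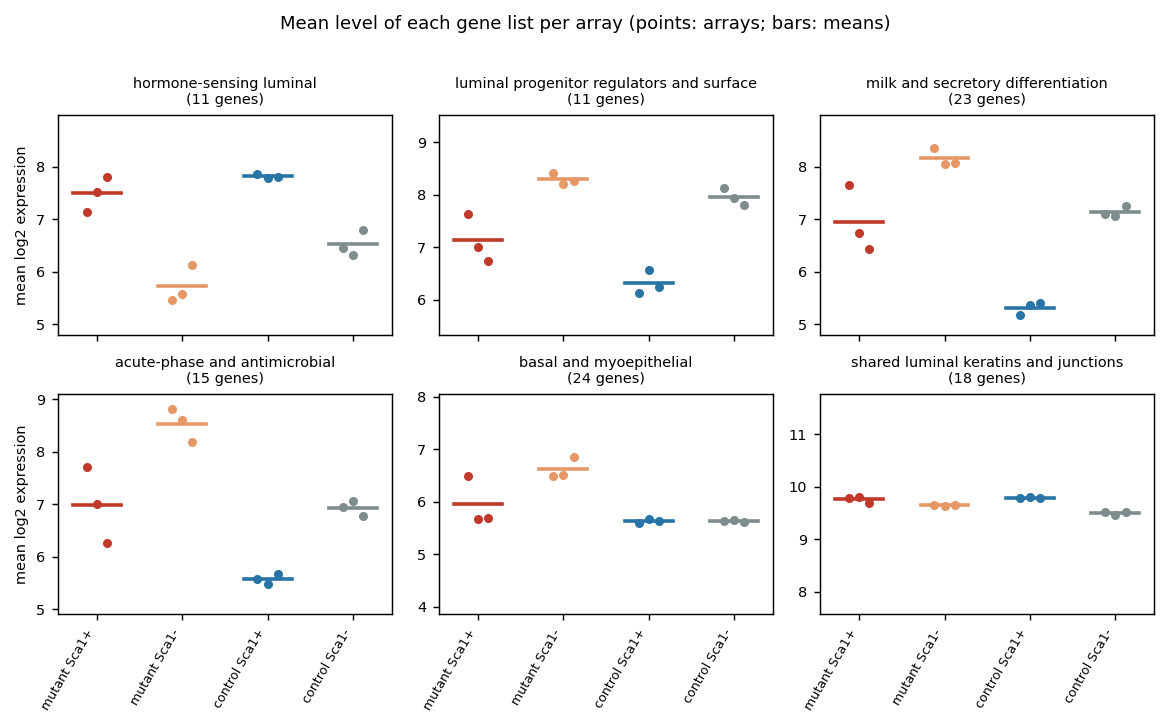
Mean log2 expression (y axis) over the measured members of 6 gene lists on each array (points) of the 4 luminal groups, with the group mean (bar). In mutant Sca1-positive cells the hormone-sensing mean (7.14 to 7.81) exceeds that of control Sca1-negative cells (6.32 to 6.80), and the milk mean (6.43 to 7.66) spans theirs (7.06 to 7.25), with 1 array above the others in the progenitor, milk, acute-phase and basal lists.

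Of 23 measured milk and secretory genes, 8 of them dim by their mean over the 24 arrays, 1 was called higher in mutant Sca1-positive than in control Sca1-negative cells (Csn2), 3 lower (Btn1a1, Xdh and Cidea) and 19 were not called, with a median difference of -0.15. In control Sca1-positive cells 11 of 23 were lower than in control Sca1-negative cells and 0 higher, with a median of -1.88. Against control Sca1-positive cells 3 of the 23, Csn1s1, Csn2 and Trf, rose, and the median was 0.98. Without the first mutant array 0 were higher and 4 lower than in control Sca1-negative cells (Mfge8, Btn1a1, Xdh and Muc15), and 2 of the 23 rose against control Sca1-positive cells (Csn1s1 and Csn2), with a median of 0.475. Against control Sca1-positive cells 2 also rose without the first or the third control Sca1-positive array. Without the third mutant array 2 of the 23 were higher (Csn2 and Wap) and 2 lower than in control Sca1-negative cells, and 8 rose against control Sca1-positive cells (Csn1s1, Csn2, Mfge8, Muc1, Muc15, Plin2, Trf and Wap), with a median of 1.255. With the second mutant or any single control Sca1-negative array left out 0 were higher and 2 or 3 lower than in control Sca1-negative cells.

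The caseins Csn1s1 and Csn2 carried the widest gap between mutant and control Sca1-positive cells in this list, and the stretch before their transcription starts is shown because prolactin acts on casein genes through STAT5, whose sites have the form TTCNNNGAA. The 250 bases before each start (RefSeq, GRCm38.p6, chromosome 5) hold 1 match each, in capitals: Csn1s1 at chr5:87665958-87666207 on the + strand, with the match starting 100 bases before the gene's start, and Csn2 at chr5:87699426-87699675 on the - strand, with the match 93 bases before it.
Csn1s1: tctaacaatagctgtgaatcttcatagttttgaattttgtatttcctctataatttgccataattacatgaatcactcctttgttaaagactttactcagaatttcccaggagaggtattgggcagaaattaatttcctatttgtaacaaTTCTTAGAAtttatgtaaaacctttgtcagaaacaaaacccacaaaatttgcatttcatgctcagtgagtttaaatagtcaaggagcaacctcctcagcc
Csn2: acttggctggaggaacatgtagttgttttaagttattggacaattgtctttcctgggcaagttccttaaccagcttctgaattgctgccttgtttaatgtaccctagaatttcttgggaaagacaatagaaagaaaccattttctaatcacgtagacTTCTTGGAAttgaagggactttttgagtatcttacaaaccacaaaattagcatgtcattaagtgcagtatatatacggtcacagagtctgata
The letters TTCNNNGAA read the same on both strands. They occur in 2726 of 32851 windows of 300 bases, 250 before to 50 after the start (8.3%), and in the windows of 5 of the 16 milk and secretory genes that have one (B4galt1, Csn1s1, Csn1s2a, Csn2 and Glycam1). The first count is of windows and the second of genes, each counted if any of its windows matched, so their shares are not comparable. A match is a description of the sequence and not evidence of binding.

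Csn2, the beta-casein gene, had 12.48, 11.51 and 10.97 in mutant Sca1-positive cells and 5.04, 5.17 and 6.58 in control Sca1-positive cells, against 8.80, 8.96 and 9.46 in control Sca1-negative cells. Every mutant array lay above every array of both control gates. Csn2 was 5.98-fold higher than in control Sca1-negative cells (2.58 ± 0.62, adjusted p = 0.033) and 66.4-fold higher than in control Sca1-positive cells (6.05 ± 0.62, adjusted p = 1.55e-05). The smaller difference lost its call without any one of 5 of the 6 arrays, all but the third mutant one, with values of 2.17 to 2.77 and adjusted p up to 0.125.

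Csn1s1, the alpha-s1-casein gene, had 11.55, 10.76 and 9.44 in mutant Sca1-positive cells and 4.18, 4.83 and 5.89 in control Sca1-positive cells, against 9.49, 9.59 and 10.56 in control Sca1-negative cells. The mutant arrays overlapped the control Sca1-negative ones and stood far above the control Sca1-positive ones. It rose by 5.62 ± 0.66 against control Sca1-positive cells (adjusted p = 7.55e-05), and its difference from control Sca1-negative cells was 0.71 ± 0.66, with a 95% interval of -0.67 to 2.08. With the first mutant array left out these were 5.13 (adjusted p = 0.000673) and 0.22.

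The mutant arrays spread widely for Csn1s2a and Wap. Csn1s2a, another casein, had 11.52, 6.25 and 9.16 in mutant Sca1-positive cells and 3.90, 4.34 and 4.47 in control Sca1-positive cells, against 7.01, 7.53 and 8.43 in control Sca1-negative cells. Wap, the whey acidic protein gene, had 10.96, 8.84 and 5.64 in mutant Sca1-positive cells and 4.36, 4.23 and 4.65 in control Sca1-positive cells, against 4.80, 6.72 and 4.45 in control Sca1-negative cells. The first mutant array was the highest for both genes. Csn1s2a differed from control Sca1-positive cells by 4.74 ± 1.10 (adjusted p = 0.0531) and Wap by 4.07 ± 0.99 (adjusted p = 0.0769), neither called. Against control Sca1-negative cells the differences were 1.32 ± 1.10 (adjusted p = 0.653) and 3.15 ± 0.99 (adjusted p = 0.114), and Wap was called without the third mutant array (4.57, adjusted p = 0.00841).

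Trf, which encodes the iron carrier transferrin, had 11.27, 10.31 and 9.92 in mutant Sca1-positive cells and 7.59, 8.48 and 7.76 in control Sca1-positive cells, against 12.07, 11.72 and 12.05 in control Sca1-negative cells. The mutant arrays lay between the control gates, above all of one and below all of the other. Trf rose against control Sca1-positive cells by 2.56 ± 0.55 (adjusted p = 0.0309), a call that ended without the first or the second mutant array or without the first or the third control Sca1-positive array, with adjusted p up to 0.164. Mfge8, a protein of the milk fat globule, had 10.88, 10.05 and 8.95 in mutant Sca1-positive cells and 7.93, 8.58 and 8.87 in control Sca1-positive cells, against 11.49, 10.74 and 11.22 in control Sca1-negative cells. Its differences of -1.19 ± 0.38 from control Sca1-negative and 1.50 ± 0.38 from control Sca1-positive cells were not called (adjusted p = 0.119 and 0.0937). Csn3, Muc1, Muc15, Plin2 and Wfdc18 likewise had negative differences from control Sca1-negative cells, from -1.58 for Muc15 to -0.10 for Muc1, and positive ones from control Sca1-positive cells, from 1.58 for Csn3 to 2.24 for Wfdc18, none of them called.

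Btn1a1, Xdh and Cidea stayed low in the mutant Sca1-positive cells. Btn1a1, the butyrophilin of the milk fat globule membrane, had 6.48, 4.99 and 4.92 in mutant Sca1-positive cells and 4.86, 4.38 and 4.20 in control Sca1-positive cells, against 8.63, 8.07 and 8.64 in control Sca1-negative cells. All mutant arrays lay below all control Sca1-negative ones. Btn1a1 fell by 2.98 ± 0.32 (adjusted p = 2.61e-05), and its difference from control Sca1-positive cells was 0.98 ± 0.32 (adjusted p = 0.261). Xdh, xanthine dehydrogenase, which binds butyrophilin during fat secretion, had 5.38, 4.56 and 4.43 in mutant Sca1-positive cells, against 7.47, 6.37 and 6.06 in control Sca1-negative cells, and fell by 1.84 ± 0.34 (adjusted p = 0.00514). Cidea, a lipid droplet protein, lay at 3.91, 3.86 and 3.79 in mutant Sca1-positive cells, against 4.01, 4.41 and 4.92 in control Sca1-negative cells, and differed by -0.60 ± 0.15 (adjusted p = 0.0466), with a call that ended without any one of 5 of the 6 arrays, all but the first control Sca1-negative one (adjusted p up to 0.153). Of these 6 arrays the third control Sca1-negative one alone was above the dim level.

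**Figure D4:**
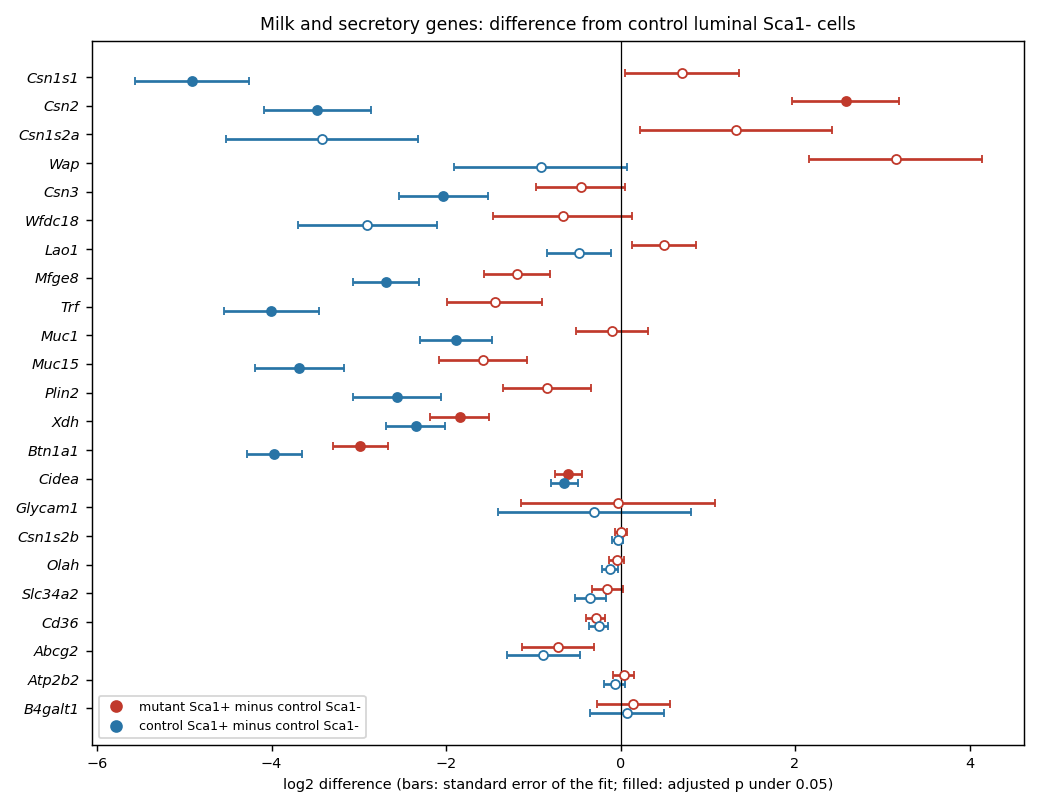
Log2 difference from control luminal Sca1-negative cells (x axis, with standard error) of the 23 milk and secretory genes in mutant Sca1-positive cells and in control Sca1-positive cells, with filled points for adjusted p under 0.05. Csn2 at 2.58 is the filled point on the positive side, and Btn1a1, Xdh and Cidea are filled on the negative side for both groups.

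Of 15 measured acute-phase and antimicrobial genes, 1 was called higher in mutant Sca1-positive than in control Sca1-negative cells (Slpi) and 2 lower (Ltf and Cp), 12 were not called, and the median difference was -0.05. Control Sca1-positive cells had 1 of 15 higher and 4 lower, with a median of -0.40. Against control Sca1-positive cells 3 of 15, Lcn2, Cp and Lbp, rose, with a median of 0.88. Without the first mutant array 1 was higher and 3 lower than in control Sca1-negative cells, Lcn2 joining Ltf and Cp, and 2 of 15 rose against control Sca1-positive cells (Lcn2 and Lbp), as they did without the second control Sca1-positive array. Without the third mutant array 3 were higher (Saa1, Saa2 and Slpi) and 1 lower than in control Sca1-negative cells, and 5 rose against control Sca1-positive cells (Lcn2, Cp, Lbp, Saa1 and Saa2). Ltf alone was lower without the second mutant or the third control Sca1-negative array.

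Lcn2, the iron-siderophore binder lipocalin-2, had 12.14, 11.76 and 10.93 in mutant Sca1-positive cells and 8.71, 9.36 and 8.01 in control Sca1-positive cells, against 12.46, 12.48 and 12.39 in control Sca1-negative cells. The mutant arrays lay just below the control Sca1-negative ones and well above the control Sca1-positive ones. It rose by 2.92 ± 0.26 against control Sca1-positive cells (adjusted p = 3e-06). The difference of -0.83 ± 0.26 from control Sca1-negative cells was not called (adjusted p = 0.116), but was -1.10 and called without the first mutant array (adjusted p = 0.0396).

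Lbp, the lipopolysaccharide-binding protein gene, had 9.55, 8.53 and 8.31 in mutant Sca1-positive cells and 5.11, 5.56 and 5.85 in control Sca1-positive cells, against 9.54, 9.96 and 9.57 in control Sca1-negative cells. The first mutant array reached the control Sca1-negative range and the other two lay below it. Lbp rose by 3.29 ± 0.49 against control Sca1-positive cells (adjusted p = 0.00119) and differed by -0.89 ± 0.49 from control Sca1-negative cells (adjusted p = 0.427).

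Ltf, the iron-binding milk protein lactoferrin, had 8.81, 6.34 and 6.25 in mutant Sca1-positive cells and 5.03, 5.01 and 5.68 in control Sca1-positive cells, against 10.69, 9.63 and 10.45 in control Sca1-negative cells. All mutant arrays were below the control Sca1-negative ones, the first again the highest. Ltf fell by 3.13 ± 0.50 against control Sca1-negative cells (adjusted p = 0.00177), with a difference of -3.97 without that array, and differed by 1.89 ± 0.50 from control Sca1-positive cells (adjusted p = 0.122). Cp, the copper carrier ceruloplasmin, had 9.33, 8.72 and 8.51 in mutant Sca1-positive cells and 7.35, 6.61 and 7.88 in control Sca1-positive cells, against 10.27, 10.18 and 10.39 in control Sca1-negative cells. It lay between the control gates, with a difference of -1.42 ± 0.30 from control Sca1-negative cells (adjusted p = 0.0162) and of 1.57 ± 0.30 from control Sca1-positive cells (adjusted p = 0.0144). The first of these calls ended without the second or the third mutant or the third control Sca1-negative array, with adjusted p up to 0.091, and the second without the first mutant or the second control Sca1-positive array, with adjusted p up to 0.0852.

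Slpi, the secretory leukocyte protease inhibitor, was called higher, with 11.90, 12.18 and 12.19 in mutant Sca1-positive cells and 11.27, 11.39 and 11.34 in control Sca1-positive cells, against 10.15, 9.98 and 10.22 in control Sca1-negative cells. The mutant arrays exceeded all others. It rose by 1.97 ± 0.19 against control Sca1-negative cells (adjusted p = 9.49e-06) and differed by 0.76 ± 0.19 from control Sca1-positive cells (adjusted p = 0.0893). Saa1, an acute-phase serum amyloid gene, had 9.32, 8.32 and 3.96 in mutant Sca1-positive cells, against 3.57, 4.47 and 3.37 in control Sca1-negative cells. The third mutant array was as dim as the controls and the other two were far above them. The difference of 3.40 ± 0.91 was not called (adjusted p = 0.0595), and it was called without that array (5.02, adjusted p = 9.9e-05). S100a8 spread over 8.75, 5.14 and 4.63 in mutant Sca1-positive cells, against 7.84, 9.67 and 5.28 in control Sca1-negative cells, with no call.

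**Figure D5:**
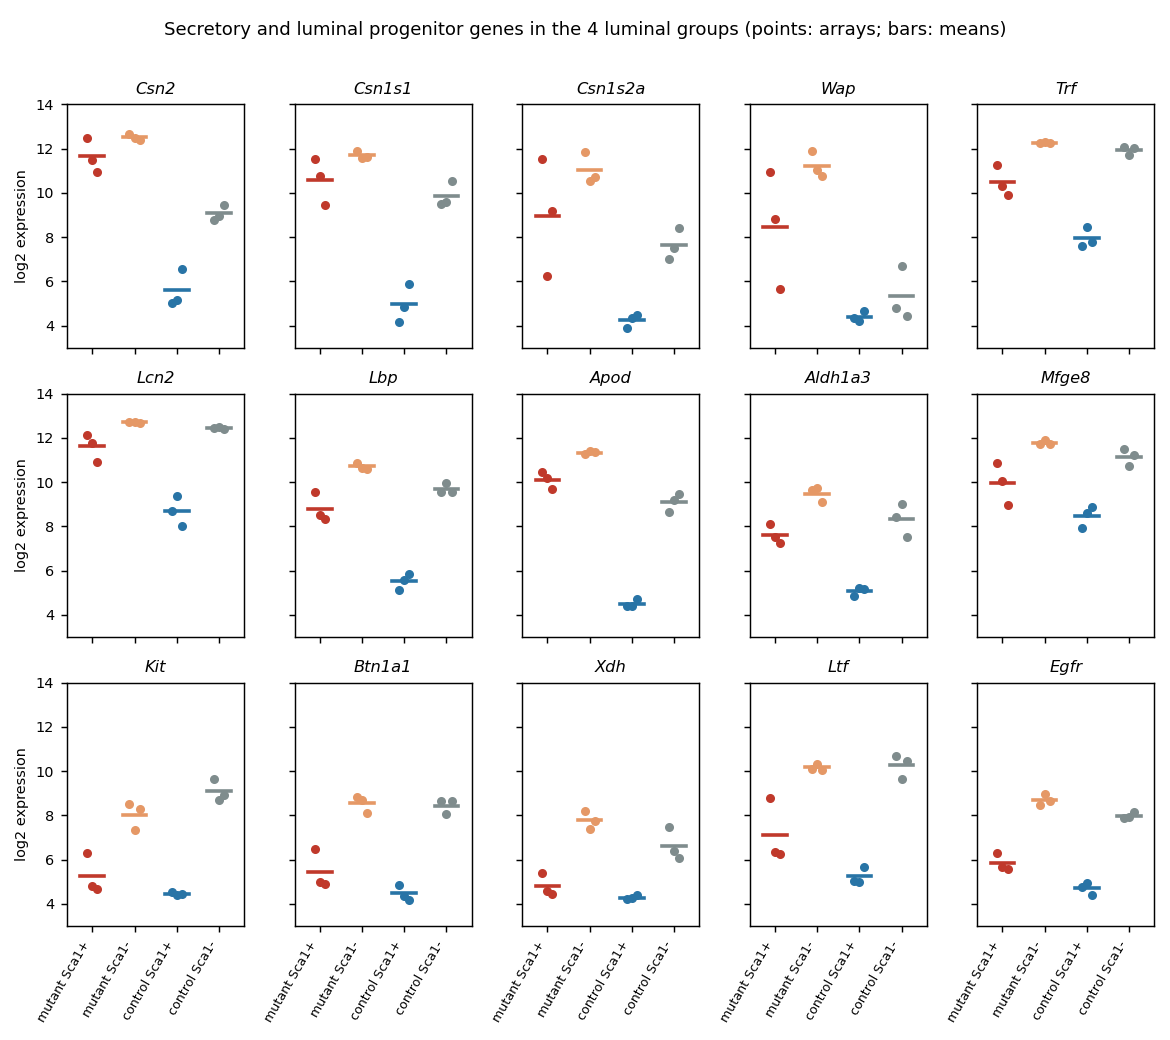
Log2 expression (y axis) of 15 secretory and luminal progenitor genes on each array (points) of the 4 luminal groups, with the group mean (bar). Csn2, Csn1s1, Apod and Lcn2 in mutant Sca1-positive cells lie near or above control Sca1-negative cells, whereas the means of Kit, Btn1a1, Xdh, Ltf and Egfr lie nearer to control Sca1-positive cells.

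The genes that parted the control gates most clearly were followed into the mutant Sca1-positive cells. These were the 6 genes each way with the smallest p between control Sca1-positive and control Sca1-negative cells, so their difference between the control gates is a description, and the control arrays that chose them also enter each comparison with the mutant cells. Lower in control Sca1-positive cells were Thbs1, Ccn2, Lcn2, Apod, Kit and Slc5a1, and higher were Tspan1, Vill, AW112010, Il18r1, Slc25a30 and Ctsr.

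Thbs1, the matrix protein thrombospondin-1, had 9.31, 8.96 and 8.99 in mutant Sca1-positive cells and 5.54, 5.17 and 6.05 in control Sca1-positive cells, against 10.76, 10.63 and 10.45 in control Sca1-negative cells. Mutant arrays lay between the gates and nearer to the control Sca1-negative ones. The gene fell by 1.53 ± 0.21 against control Sca1-negative cells (adjusted p = 0.000327) and rose by 3.50 ± 0.21 against control Sca1-positive cells (adjusted p = 1.77e-08). Apod, the lipocalin apolipoprotein D, had 10.46, 10.18 and 9.68 in mutant Sca1-positive cells and 4.38, 4.38 and 4.70 in control Sca1-positive cells, against 8.66, 9.17 and 9.47 in control Sca1-negative cells. All mutant arrays were above both control gates. Apod rose by 5.62 ± 0.34 against control Sca1-positive cells (adjusted p = 1.77e-08), and the difference of 1.01 ± 0.34 from control Sca1-negative cells was not called (adjusted p = 0.14). Ccn2, connective tissue growth factor, was lower than in control Sca1-negative cells (difference -2.06 ± 0.21, adjusted p = 1.91e-05) and was above control Sca1-positive cells by 0.99 ± 0.21 (adjusted p = 0.0314, up to 0.202 with 1 array left out, the first or the third of either Sca1-positive group).

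Of the 6 genes that were higher in control Sca1-positive cells, 5 were also higher in mutant Sca1-positive than in control Sca1-negative cells. The villin-like gene Vill had 6.72, 7.52 and 7.42 in mutant Sca1-positive cells and 7.46, 7.50 and 7.66 in control Sca1-positive cells, against 5.66, 5.49 and 5.17 in control Sca1-negative cells, a rise of 1.78 ± 0.17 (adjusted p = 9.49e-06). AW112010 rose by 1.77 ± 0.21 (adjusted p = 9.22e-05), the interleukin-18 receptor gene Il18r1 by 2.33 ± 0.30 (adjusted p = 0.000185) and the mitochondrial carrier Slc25a30 by 1.91 ± 0.22 (adjusted p = 6e-05). None of these 4 was called between mutant and control Sca1-positive cells. Tspan1, a tetraspanin, had 7.53, 7.70 and 7.48 in mutant Sca1-positive cells and 8.79, 9.42 and 9.21 in control Sca1-positive cells, against 6.73, 6.90 and 6.43 in control Sca1-negative cells. It lay between the gates, with a difference of 0.88 ± 0.13 from control Sca1-negative cells (adjusted p = 0.000797) and of -1.57 ± 0.13 from control Sca1-positive cells (adjusted p = 1.35e-06). Ctsr, cathepsin R, had 4.27, 3.67 and 4.10 in mutant Sca1-positive cells and 7.90, 7.61 and 8.81 in control Sca1-positive cells, against 5.40, 5.33 and 4.22 in control Sca1-negative cells, dim on all 3 mutant arrays, and fell by 4.09 ± 0.27 against control Sca1-positive cells (adjusted p = 4.59e-08).

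Some genes moved in the mutant Sca1-positive cells beyond both control gates, that is, they were called in the same direction against each. The gene with the largest rise was Wfdc12, of the whey acidic protein family of protease inhibitors. It had 9.90, 8.71 and 8.73 in mutant Sca1-positive cells, 6.44, 6.26 and 6.60 in mutant Sca1-negative cells and 4.90, 4.01 and 4.29 in control Sca1-positive cells, against 4.04, 3.92 and 4.30 in control Sca1-negative cells. Both mutant groups lay above every control array. Against control Sca1-negative cells it was 32.6-fold higher (5.03 ± 0.27, adjusted p = 1.01e-08) and against control Sca1-positive cells 26.3-fold higher (4.72 ± 0.27, adjusted p = 1.77e-08).

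Il33, an alarmin cytokine of the interleukin-1 family, had 10.48, 10.81 and 10.74 in mutant Sca1-positive cells, 6.71, 5.69 and 7.33 in mutant Sca1-negative cells and 7.32, 8.85 and 7.29 in control Sca1-positive cells, against 6.07, 5.53 and 6.43 in control Sca1-negative cells. The mutant Sca1-positive arrays lay above all others. It rose by 4.67 ± 0.41 against control Sca1-negative cells (adjusted p = 3.6e-06) and by 2.86 ± 0.41 against control Sca1-positive cells (adjusted p = 0.000787). Il17b, a cytokine of the interleukin-17 family, had 9.15, 9.35 and 8.60 in mutant Sca1-positive cells, 8.79, 8.16 and 9.11 in mutant Sca1-negative cells and 5.80, 5.40 and 5.13 in control Sca1-positive cells, against 5.75, 5.31 and 5.72 in control Sca1-negative cells. High values thus occurred in both mutant groups and in no control luminal array. Its rise was 3.44 ± 0.23 (adjusted p = 1.21e-07) against control Sca1-negative and 3.59 ± 0.23 (adjusted p = 3.03e-08) against control Sca1-positive cells.

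Htr4, a serotonin receptor gene, had 6.86, 7.34 and 7.39 in mutant Sca1-positive cells, 4.40, 4.48 and 4.50 in mutant Sca1-negative cells and 5.47, 4.70 and 4.67 in control Sca1-positive cells, against 4.66, 4.43 and 4.40 in control Sca1-negative cells. The mutant Sca1-positive arrays lay above all others, and Htr4 rose by 2.70 ± 0.18 against control Sca1-negative cells (adjusted p = 1.14e-07). Mall, a proteolipid related to MAL, rose by 3.15 ± 0.29 (adjusted p = 7.75e-06) and Sytl2, which tethers secretory vesicles, by 1.52 ± 0.12 (adjusted p = 9e-07). Each also rose against control Sca1-positive cells, by 2.25 for Htr4, 3.36 for Mall and 1.04 for Sytl2.

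Below both control gates lay Mdga2, a membrane-anchored protein known from synapses, with 3.48, 3.54 and 3.52 in mutant Sca1-positive cells, 3.56, 3.75 and 3.54 in mutant Sca1-negative cells and 8.43, 8.61 and 9.45 in control Sca1-positive cells, against 7.64, 5.59 and 7.18 in control Sca1-negative cells. Both mutant groups were dim on every array and all 6 control arrays were above the dim level. It fell by 3.29 ± 0.34 against control Sca1-negative cells (adjusted p = 1.9e-05) and differed by -5.32 ± 0.34 from control Sca1-positive cells (adjusted p = 3.03e-08). Tph1, the rate-limiting enzyme of serotonin synthesis outside the brain, had 4.27, 4.60 and 4.88 in mutant Sca1-positive cells, 3.98, 4.12 and 3.98 in mutant Sca1-negative cells and 9.58, 8.64 and 10.71 in control Sca1-positive cells, against 8.18, 4.73 and 8.51 in control Sca1-negative cells. The second control Sca1-negative array lay at the mutant level. Tph1 fell by 2.56 ± 0.65 against control Sca1-negative cells (adjusted p = 0.0471), a call that ended without any one of 5 of the 6 arrays, all but that one, with adjusted p up to 0.185, and differed by -5.06 ± 0.65 from control Sca1-positive cells (adjusted p = 0.000257). Nrxn3, a neurexin, was dim on all 3 mutant arrays, with differences of -0.92 ± 0.16 from control Sca1-negative cells (adjusted p = 0.00335) and -2.61 ± 0.16 from control Sca1-positive cells (adjusted p = 1.93e-08). The lipid transporter gene Vps13a had differences of -0.58 ± 0.13 and -0.79 ± 0.13 from the same groups, the smaller with a call that ended without any one of 5 of the 6 arrays, all but the first control Sca1-negative one (adjusted p up to 0.116).

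Among the 12 largest rises against control Sca1-negative cells were further Dmbt1, a secreted scavenger receptor protein (4.08 ± 0.56, adjusted p = 0.000361), the small heat shock protein Hspb8 (3.39 ± 0.53, adjusted p = 0.00134), the protease-like gene Prss35 (3.27 ± 0.39, adjusted p = 9.22e-05), Ypel4 (3.18 ± 0.32, adjusted p = 1.4e-05) and Emb, a partner of lactate transporters (3.05 ± 0.38, adjusted p = 0.000126). Ang5, of the angiogenin family of ribonucleases, the galectin Lgals1 and the autophagy scaffold Wdfy3 rose by 3.03, 3.02 and 2.99. Dmbt1, Hspb8, Ang5 and Wdfy3 had no called difference from control Sca1-positive cells, whereas Prss35, Ypel4, Emb and Lgals1 also rose against those cells, by 3.50, 2.42, 3.36 and 2.69. The call of Wdfy3 ended without the third mutant or the second control Sca1-negative array (adjusted p up to 0.0882).

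The 12 largest falls were led by Kit. Itprid1 had 6.19, 4.81 and 4.44 in mutant Sca1-positive cells, against 9.32, 7.67 and 8.95 in control Sca1-negative cells, and fell by 3.50 ± 0.48 (adjusted p = 0.000412). Egln3, a prolyl hydroxylase that marks hypoxia-inducible factors for degradation, had 5.92, 5.04 and 5.12 in mutant Sca1-positive cells, against 8.50, 9.04 and 8.84 in control Sca1-negative cells, and fell by 3.44 ± 0.33 (adjusted p = 1.02e-05). Falls followed in Arhgef6, an exchange factor for Rac and Cdc42 (difference -2.95), the membrane peptidase Mme (-2.79), the interferon-inducible gene Ifi202b (-2.74), the integrin Itgb8 (-2.58), the sodium-glucose transporter Slc5a1 (-2.55) and the ubiquitin ligase Rnf125 (-2.53). Genes of this ranking were chosen among called genes without overlap, so mutant arrays below all control Sca1-negative arrays follow from the choice. For none of these 8 genes was the difference between mutant and control Sca1-positive cells called, from -0.44 for Ifi202b to 1.02 for Itgb8.

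Of 16 measured genes of PI3K, insulin and IGF signalling 0 were called against control Sca1-negative cells, with a median of -0.02. At an unadjusted p under 0.05 limma gave 2909 genes over the whole table. Igfbp5, an IGF-binding protein chosen here after its values were seen, had 10.74, 8.99 and 8.46 in mutant Sca1-positive cells and 5.89, 6.06 and 5.64 in control Sca1-positive cells, against 11.38, 10.16 and 11.10 in control Sca1-negative cells. It rose by 3.53 ± 0.41 against control Sca1-positive cells (adjusted p = 6.49e-05), the only called member of its list there, and differed by -1.48 ± 0.41 from control Sca1-negative cells (adjusted p = 0.0642). It was called lower than in control Sca1-negative cells once the first mutant or the second control Sca1-negative array was left out. With 0.777% of all genes called between mutant and control Sca1-positive cells, its single call there is not read as a result about the list.

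Of 16 FOXO factors and targets 2 fell, the co-regulator Cited2 (-0.97 ± 0.21, adjusted p = 0.0164) and the thioredoxin-binding metabolic regulator Txnip (-1.58 ± 0.27, adjusted p = 0.00301), with a list median of 0.04. Txnip had 8.74, 8.61 and 7.72 in mutant Sca1-positive cells and 9.05, 9.11 and 9.25 in control Sca1-positive cells, against 10.14, 10.19 and 9.49 in control Sca1-negative cells, so that the mutant arrays were the lowest of the 3 groups. Its difference from control Sca1-positive cells was -0.78 ± 0.27 (adjusted p = 0.337). The call of Cited2 ended without the third mutant or the first control Sca1-negative array (adjusted p up to 0.101), and without the first mutant array Pdk4 was called lower too.

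Egfr, the receptor of amphiregulin and epidermal growth factor, was the one called gene of 13 ERBB ligands and receptors. It had 6.30, 5.65 and 5.58 in mutant Sca1-positive cells and 4.78, 4.94 and 4.39 in control Sca1-positive cells, against 7.90, 7.91 and 8.17 in control Sca1-negative cells. The mutant arrays lay above the control Sca1-positive ones and far below the control Sca1-negative ones. Egfr fell by 2.15 ± 0.28 (adjusted p = 0.000199), and its difference from control Sca1-positive cells was 1.14 ± 0.28 (adjusted p = 0.0801). Among 9 genes from the prolactin receptor to STAT5 0 were called in either comparison of the mutant cells, with a median of 0.12 against control Sca1-negative cells, while without the first mutant array Stat5a was called higher and Elf5, which this list shares, lower. The receptor gene Prlr itself is not analysed here.

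In the Notch pathway 1 of 15 genes, the ligand Jag1, rose (1.22 ± 0.24, adjusted p = 0.00973, up to 0.0608 with 1 array left out, namely the third mutant or the second control Sca1-negative one). In the Wnt and R-spondin pathway 1 of 16, the ligand Wnt5b, fell (-1.67 ± 0.25, adjusted p = 0.000988), with 5.71, 4.91 and 5.21 in mutant Sca1-positive cells, against 6.97, 6.99 and 6.89 in control Sca1-negative cells. The mutant Wnt5b values lay below the control Sca1-negative ones on every array. Without the first mutant array Lgr6 was called lower as well, and without the second control Sca1-negative array Lgr6 was lower and Wnt4 and Wnt7b were higher.

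Metabolic and proliferation genes gave single calls. Over all genes 2.28% were called, so a single call in a list of such size is not read as a result about the list. That also applies to the Notch, Wnt, ERBB, stress, endothelial and basal lists. Of 23 genes of sterol and fatty acid synthesis the fatty acid elongase Elovl5 rose (1.26 ± 0.25, adjusted p = 0.00968), a call just missed without the third control Sca1-negative array (adjusted p = 0.0509), while Scd2 was called higher without the first control Sca1-negative array and Fads2 lower without the first mutant one. Of 14 glycolysis genes the aldolase Aldoa rose (0.63 ± 0.16, adjusted p = 0.0471), and of 29 cell cycle genes E2f1 rose (0.54 ± 0.14, adjusted p = 0.0466). E2f1, a transcription factor of S-phase entry, had 5.25, 5.27 and 5.68 in mutant Sca1-positive cells and 4.71, 4.83 and 4.80 in control Sca1-positive cells, against 4.84, 4.99 and 4.76 in control Sca1-negative cells, and also rose against control Sca1-positive cells (0.62 ± 0.14, adjusted p = 0.0383). The call of Aldoa ended without any one of the 6 arrays (adjusted p up to 0.144), and both calls of E2f1 without any array of those compared but the first mutant one (adjusted p up to 0.214 against control Sca1-negative and 0.198 against control Sca1-positive cells). The peptide transporters Tap1 (1.08 ± 0.25) and Tap2 (1.20 ± 0.27) rose among 21 genes of interferon response and class I presentation, with adjusted p of 0.0294 and 0.0263, and both calls ended without any one array but the first mutant one (adjusted p up to 0.122 and 0.132).

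Nr4a1, an immediate early orphan nuclear receptor, had 11.02, 10.98 and 11.09 in mutant Sca1-positive cells, 10.52, 10.40 and 10.63 in mutant Sca1-negative cells and 9.79, 9.26 and 9.65 in control Sca1-positive cells, against 9.86, 9.39 and 9.11 in control Sca1-negative cells. Both mutant groups lay above every control luminal array. It was the single called gene of 19 immediate early and dissociation stress genes against control Sca1-negative cells (1.58 ± 0.21, adjusted p = 0.000199), and it rose against control Sca1-positive cells too (1.46 ± 0.21, adjusted p = 0.000667). The mean of the list lay between 10.45 and 10.54 in mutant Sca1-positive cells, against 10.26 to 10.46 in control Sca1-negative cells.

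Basal and myoepithelial genes were called once in 24, for the integrin Itgb4 (0.91 ± 0.18, adjusted p = 0.011, 0.0662 without the third mutant and 0.0509 without the third control Sca1-negative array), and the median difference was 0.16. Krt5, a basal keratin, had 7.98, 5.18 and 6.28 in mutant Sca1-positive cells and 8.63, 7.93 and 8.94 in mutant Sca1-negative cells, against 4.93, 5.24 and 5.47 in control Sca1-negative cells. Krt14 had 8.98, 6.90 and 6.41 and the smooth muscle actin gene Acta2 8.04, 4.79 and 5.36 in mutant Sca1-positive cells, against 6.83, 6.12 and 6.55 and 5.38, 5.77 and 5.40 in control Sca1-negative cells. The first mutant array was the high one for these 3 genes, and the differences of 1.27 ± 0.43, 0.93 ± 0.42 and 0.55 ± 0.63 were not called. Control basal GFP-negative cells had means of 11.67 ± 0.15 for Krt5 and 12.42 ± 0.03 for Acta2 (SD, n = 3). Once the first mutant array was left out the list median was -0.04 and the intermediate filament gene Vim was called lower (-1.11, adjusted p = 0.00227). Krt5 was called higher without the second mutant array and Krt17 without the third. How far basal cells or basal transcripts on that array bear on its milk and acute-phase values was not tested.

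Keratins and junction genes shared by all luminal cells gave 0 calls of 18 in each of the 3 comparisons, with a median of 0.25 against control Sca1-negative cells. At an unadjusted p under 0.05 the whole table gave 2909 genes in that comparison and 1542 between mutant and control Sca1-positive cells. Krt8 lay at 12.53, 12.64 and 12.61 in mutant Sca1-positive cells, against 12.44, 12.67 and 12.57 in control Sca1-negative cells, and Cd24a, the gene of the sorting antigen, at 11.45, 11.87 and 11.62 against 11.23, 11.38 and 11.54. Markers of leukocytes, fibroblasts, pericytes, adipocytes and erythroid cells gave 0 calls of 16, 9, 7, 6 and 1. By their mean over the 24 arrays 15, 4, 6, 5 and 1 of these were dim. With 2.28% called over all genes, lists so small, and but for the fibroblast one mostly dim, could hardly show a call. Their 0 calls do not exclude other cells. The fibroblast marker Dcn lay well above the dim level in both groups. It differed by -1.48 from control Sca1-negative cells (limma, adjusted p = 0.329), and its values are given at the end. Of 12 endothelial markers Eng alone was called. Eng, a co-receptor of TGF-beta, had 7.78, 6.45 and 7.51 in mutant Sca1-positive cells, against 5.44, 5.15 and 5.35 in control Sca1-negative cells (1.94 ± 0.32, adjusted p = 0.00204). The endothelial list mean lay between 4.34 and 4.54 in mutant Sca1-positive cells, against 4.30 to 4.44 in control Sca1-negative cells. By their mean over the 24 arrays 10 of its 12 genes were dim, and the endothelial cadherin Cdh5 was dim in the mutant cells (3.75, 3.83 and 3.84).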

How the data were processed

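RNA of 24 sorted mammary samples, 250 cells each, was amplified with the NuGen Ovation Pico system and hybridised to Affymetrix Mouse Gene 1.0 ST arrays, per the labels' protocols. The authors deposited log2 expression values per probe set. The submitters' processing notes name affy; background correction, normalization and summarization are not given in the sources used here. Of 34760 probe sets, 21640 carry a single gene symbol, 1321 several and 11799 none; the brightest of each gene over the 24 arrays was kept, which gave 19937 genes.

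Groups came from the sample titles. limma 3.58.1 in R 4.3.3 fitted the means of 8 groups of 3 arrays (16 residual degrees of freedom) with an empirical Bayes spread shared by all groups, and Benjamini-Hochberg adjustment ran over all genes. The fit was tested on simulated data. The number of arrays limits the precision. The p-values rest on the spread between arrays of a group, pooled over all 8 groups, basal ones included. They do not rest on the spread of the arrays compared alone.

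The comparisons, members and 24 gene lists were chosen with earlier results of these data known, so list counts are descriptions. Named genes were up to 12 non-overlapping called genes each way with the largest difference. All measured members of the luminal, milk, acute-phase and basal lists and up to 4 called members of each other list were added. So were the label or gate genes Pik3ca, Lgr5, Ptprc and Cd24a. Further ones were up to 6 each way beyond both control gates, and up to 6 each way between the control gates. The rankings left out predicted genes, receptors of smell, small RNAs and pseudogenes. Alternatives were other sets of groups in the fit, quantile and median scaling, dim genes left out, probe sets averaged, array weights, another variance prior, replicate number as a block, and each array left out in turn.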

Additional observations from a re-analysis of the deposited data

Results flagged for a closer look

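The 13120 probe sets with several gene symbols or none were outside the comparison by genes. Tested on their own with limma, 79 of them (0.602%) had an adjusted p under 0.05 between mutant Sca1-positive and control Sca1-negative cells, 21 higher and 58 lower. Signal outside the main measurement is what marked them for a closer look. They are not named here, since no single gene can be given for them.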

How the results depend on the processing

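No called difference of a named gene changed sign under any alternative run. Fitting only the 6 arrays compared called 54 genes between mutant Sca1-positive and control Sca1-negative cells in place of 454, 311 in place of 735 between the control gates, and 8 in place of 155 between mutant and control Sca1-positive cells; such fits have fewer residual degrees of freedom. With the luminal arrays alone the last count was 79. Leaving out 1 array gave 245 to 444, 458 to 582 and 103 to 183 genes. Quantile normalization moved the share of higher calls to 53.7%, 45.7% and 50.0%, against 67.0%, 56.5% and 51.6%, so that between the control gates most calls were lower in place of higher. Median centring gave 67.9%, 64.9% and 46.1%, which turned the majority between mutant and control Sca1-positive cells. Array weights called 681, 831 and 221. The median distance of mutant Sca1-positive from control Sca1-negative arrays was 0.749 over brighter genes, against 0.570 over all. Between the control gates it was 0.825 against 0.618, and between mutant and control Sca1-positive arrays 0.672 against 0.519. These distances thus all rose and kept their order.

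With replicate number as a block 475, 761 and 164 genes were called. Correlations were taken of each array's deviations from its group mean. Same-numbered arrays of the first comparison correlated by 0.06, 0.10 and 0.02. Between the control gates these values were 0.06, 0.17 and 0.02, and between mutant and control Sca1-positive cells 0.12, 0.14 and 0.04. Differently numbered arrays of the 3 comparisons ran from -0.12 to 0.05. The labels do not say that the number marks a sorting, so it is not taken as a pairing and the main fit has no term for it.

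Of 58 named genes called in the first comparison, 41 lost the call in the fit of 6 arrays, 15 in that of the luminal arrays and 17 with some array left out. Of 94 not called, 32 changed sign under some alternative, the largest of them at a main difference of 0.689 in size. Between mutant and control Sca1-positive cells 4 of 30 called genes, Il17b, Mdga2, Thbs1 and Apod, kept the call under every alternative run for them, 16, or 15 for the dim Mdga2. The results without the first mutant Sca1-positive array on lists and distances were chosen after seeing the data.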

Other observations

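Some further list members, chosen after their values were seen, differed between mutant and control Sca1-positive cells but were not called against control Sca1-negative cells. Over all genes 0.777% were called between mutant and control Sca1-positive cells. The single calls given here and in the next paragraph are therefore not read as results about their lists. Usp18, an interferon-induced protease that removes ISG15, had 4.16, 4.50 and 4.21 in mutant Sca1-positive cells and 5.01, 6.15 and 6.61 in control Sca1-positive cells, with 4.42, 4.42 and 4.13 in control Sca1-negative cells. The mutant and the control Sca1-negative arrays were dim throughout, and the gene fell by 1.63 ± 0.27 against control Sca1-positive cells (limma, adjusted p = 0.00306). It was the single called gene of 21 in the interferon list in that comparison. Wnt5a, a non-canonical Wnt ligand, had 5.76, 6.23 and 6.21 in mutant Sca1-positive cells and 7.29, 7.07 and 8.15 in control Sca1-positive cells, and fell by 1.44 ± 0.29 (limma, adjusted p = 0.0194). The single called member of 16 in its list there, it lay lower on every mutant array. The call ended without the first mutant array (-1.29, limma, adjusted p = 0.102) and without the third control Sca1-positive array (-1.11, limma, adjusted p = 0.12).

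Pdia6, a disulfide isomerase of the endoplasmic reticulum, had 8.42, 7.78 and 8.53 in mutant Sca1-positive cells and 9.74, 9.26 and 9.71 in control Sca1-positive cells, and fell by 1.33 ± 0.21 (limma, adjusted p = 0.00214), 1 of 14 genes of folding. Jun, an immediate early transcription factor, had 11.19, 11.14 and 11.22 in mutant Sca1-positive cells and 11.90, 11.49 and 11.93 in control Sca1-positive cells. It fell by 0.59 ± 0.10 (limma, adjusted p = 0.00452), whereas Nr4a1 of the same list rose. Dcn, the matrix proteoglycan decorin of the fibroblast list, had 8.49, 9.80 and 7.27 in mutant Sca1-positive cells and 11.09, 11.73 and 11.78 in control Sca1-positive cells, with 9.88, 10.27 and 9.86 in control Sca1-negative cells. It fell by 3.01 ± 0.69 against control Sca1-positive cells (limma, adjusted p = 0.0479), the single called gene of 9 fibroblast markers. That call ended without any one of 5 of the 6 arrays, all but the second mutant one, with a difference and limma adjusted p of -3.00 and 0.139 without the first mutant array and -2.39 and 0.236 without the third. The calls of Usp18, Jun and Pdia6 were kept whichever array was left out, and those of all 5 genes were lost in a fit of the 6 arrays compared. In a fit of the luminal arrays alone the calls of Usp18, Wnt5a, Jun and Dcn were lost as well.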
